A study of Mus musculus with 20 samples.

Results

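A set of 10 genes whose products sit on the surface of oligodendrocyte precursor cells and their early progeny, or are released by them, were followed in mouse medial prefrontal cortex after a local injection of CDS or of PBS. The genes were chosen by symbol, with earlier results of these data known. All 10 were present among the 20375 genes of both of the authors' comparisons. Of these, 7 are early precursor genes (Pdgfra, Cspg4, Neu4, Matn4, C1ql1, Lhfpl3 and Cacng4), 2 mark the committed stage (Gpr17 and Enpp6), and Bcas1, whose product lies inside the cell, belongs to premyelinating and myelinating oligodendrocytes. The 20 samples came from C57BL/6 mice and formed 4 groups of 5. At 5 days after injection (5 dpi, postnatal day 47) 5 PBS and 5 CDS samples were taken, and another 5 of each were taken at 12 weeks of age (postnatal day 84), 6 weeks past the injection. The labels do not say what CDS stands for, and the title of the series names a microglia depletion model. The labels name no animal or batch, so the tests measure the spread between these samples.

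Oligodendrocyte precursors are dividing glial cells that depend on platelet-derived growth factor, which they sense through the receptor encoded by Pdgfra. Most carry the proteoglycan NG2, the product of Cspg4. On leaving the cycle they lose both proteins, pass through a short committed stage marked by the receptor GPR17, switch on ENPP6 as newly formed oligodendrocytes, and then make myelin. Neu4 is high in precursors and remains high in committed precursors, so that it spans the boundary between these stages.

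Values below are log2 fold changes between CDS and PBS (negative where CDS is lower) from the authors' deposited table for that time, and a gene was called where its deposited q-value was under 0.05. Values per sample were not used here, since the tables hold group comparisons only, and neither levels nor the depth of the libraries are known. Errors are standard errors (SE) implied by the deposited values, and 95% intervals follow from them. In bulk tissue, fewer cells of a type and less RNA per cell cannot be told apart. The tissue could not be checked against its markers, as no levels were given.

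At 5 dpi, CDS cortex had lower RNA of 8 of the 10 genes by the authors' deposited table, where 3.18% of all genes were lower. None of the 10 was higher, as were 2.75% of all genes. All 7 early precursor genes fell, and their median was -2.09 on the log2 scale beside -0.023 for all genes. The committed-stage pair split, as Gpr17 fell and Enpp6 was not called. Bcas1 was not called. In the same table, the 3 smallest q-values of all 20375 genes belonged to Neu4, Matn4 and Pdgfra. Because the genes were chosen with earlier results of these data known, such ranks and counts describe them and test nothing.

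**Figure D1:**
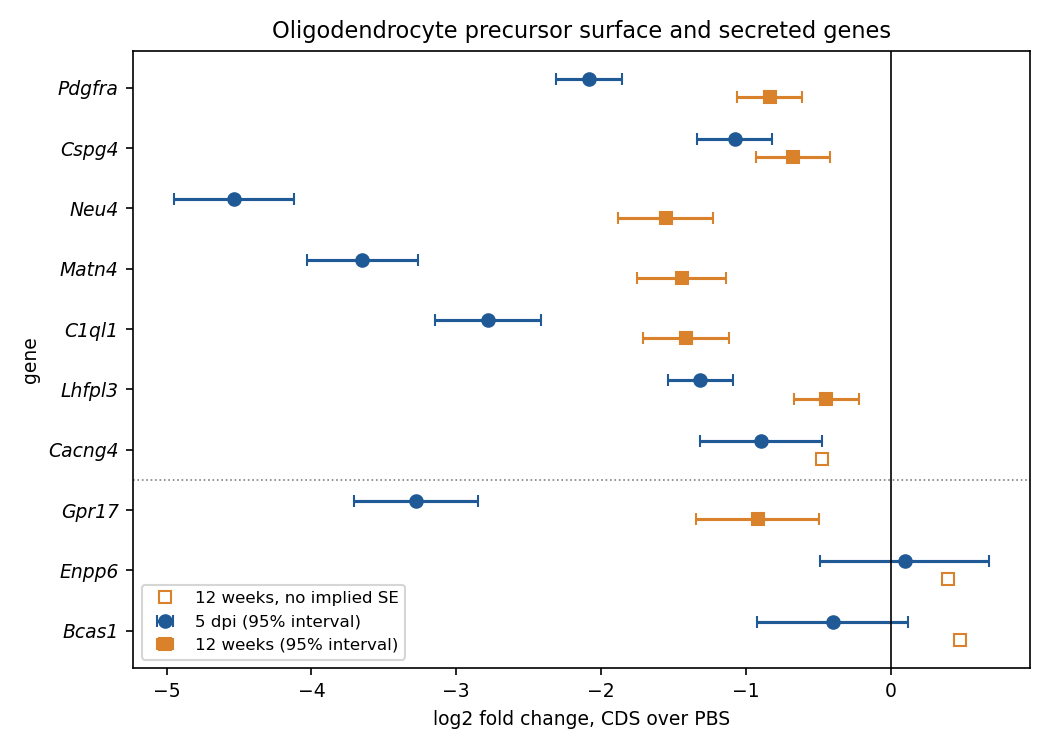
Log2 fold change of CDS over PBS for the 10 genes at 5 dpi (blue circles) and 12 weeks (orange squares), as deposited, with 95% intervals from the implied SE. Open squares have no implied SE, and the dotted line parts the early precursor genes from Gpr17, Enpp6 and Bcas1. Neu4 lies lowest at both times, at -4.53 and -1.56, and Enpp6 and Bcas1 lie above 0 at 12 weeks.

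Among the receptors and surface proteins, Pdgfra (chromosome 5, 75152292 to 75198215, plus strand, GRCm38) stood at 23.6% of its PBS level at 5 dpi, from the authors' deposited table (95% interval 20.2 to 27.6%). Cspg4 (chromosome 9, 56865033 to 56899870, plus strand) stood at 47.4% (39.6 to 56.7%), and the authors' deposited table gave it a log2 fold change of -1.08 (SE 0.13). The intervals of these receptor and proteoglycan genes did not overlap. Lhfpl3, a tetraspan membrane protein gene enriched in precursors (chromosome 5, 22746059 to 23275597, plus strand), stood at 40.2% of PBS by the authors' deposited table (34.4 to 47.0%). Cacng4, which encodes an auxiliary subunit of AMPA-type glutamate receptors (chromosome 11, 107732357 to 107794557, minus strand), fell by 0.90 with an SE of 0.22 (q = 0.00183, the authors' deposited table). It showed the smallest of the 8 falls and was the only 1 of them lost under Bonferroni adjustment. Gpr17, a G protein-coupled receptor of the committed stage (chromosome 18, 31942997 to 31949636, minus strand), stood at 10.3% of PBS (7.66 to 13.9%) in the authors' deposited table.

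Matn4, C1ql1 and Neu4 fell further than Pdgfra, as the receptor gene Gpr17 also did, while Enpp6 and Bcas1 were not called. Matn4, an extracellular matrix adaptor of the matrilin family (chromosome 2, 164389393 to 164405160, minus strand), stood at 7.97% of PBS in the authors' deposited table (6.11 to 10.4%). C1ql1, a secreted protein of the C1q-like family that acts at synapses (chromosome 11, 102939264 to 102946688, minus strand), stood at 14.5% of PBS (11.3 to 18.7%) in the authors' deposited table. Neu4, a membrane-associated sialidase that removes sialic acid from glycoproteins and glycolipids (chromosome 1, 94020451 to 94028334, plus strand), stood at 4.32% (3.24 to 5.75%) in the authors' deposited table. The ectoenzyme gene Enpp6, a choline-specific phosphodiesterase (chromosome 8, 46986887 to 47096762, plus strand), had a log2 fold change of 0.09 with an SE of 0.30 (q = 0.91, the authors' deposited table). Its interval, from 71.3 to 160% of PBS, leaves room for a moderate change in either direction but not for a fall of the size seen in Gpr17. Bcas1 (chromosome 2, 170346991 to 170427845, minus strand) was listed at -0.40 with a q of 0.424 in the authors' deposited table (SE 0.26), and its interval ran from 52.8 to 108% of PBS. On the log2 scale the falls were -4.53 for Neu4 (SE 0.21), -3.65 for Matn4 (0.20), -3.28 for Gpr17 (0.22), -2.78 for C1ql1 (0.19), -2.09 for Pdgfra (0.12) and -1.31 for Lhfpl3 (0.12). Their q-values, and that of Cspg4, lay between 1.72e-97 and 2.03e-13 in the authors' deposited table.

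Promoters are shown for 4 of the 6 genes whose RefSeq promoters were used here, a set that leaves out Gpr17. They are those of Neu4 with the largest fall, the receptor gene Pdgfra, Lhfpl3 with a repeated E-box, and Enpp6, which was not called. Each is the sequence upstream of the RefSeq transcription start in GRCm38.p6, on the plus strand, up to 250 bases, cut where the GENCODE gene begins earlier. Capitals mark matches, on either strand, to the E-boxes CAGCTG and CATATG, the class of site that the lineage factor OLIG2 binds, and to the SOX-type motifs ACAAAG and ACAATG. Both E-boxes read the same on either strand, and no matches shown overlap.
Neu4 (chr1:94020243-94020450): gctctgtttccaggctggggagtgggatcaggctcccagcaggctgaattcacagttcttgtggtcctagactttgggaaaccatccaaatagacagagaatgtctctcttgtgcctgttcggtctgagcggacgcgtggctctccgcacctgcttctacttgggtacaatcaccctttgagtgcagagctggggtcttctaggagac
Pdgfra (chr5:75152001-75152250): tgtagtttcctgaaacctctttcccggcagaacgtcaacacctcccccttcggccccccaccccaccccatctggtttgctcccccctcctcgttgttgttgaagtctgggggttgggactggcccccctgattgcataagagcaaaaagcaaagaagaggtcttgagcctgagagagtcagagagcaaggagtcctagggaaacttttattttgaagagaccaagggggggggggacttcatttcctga
Lhfpl3 (chr5:22745804-22746053): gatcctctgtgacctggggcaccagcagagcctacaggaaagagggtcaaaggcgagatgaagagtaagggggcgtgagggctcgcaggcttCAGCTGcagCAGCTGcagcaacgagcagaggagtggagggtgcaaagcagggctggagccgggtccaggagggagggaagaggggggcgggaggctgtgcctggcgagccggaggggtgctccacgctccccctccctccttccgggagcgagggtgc
Enpp6 (chr8:46986637-46986886): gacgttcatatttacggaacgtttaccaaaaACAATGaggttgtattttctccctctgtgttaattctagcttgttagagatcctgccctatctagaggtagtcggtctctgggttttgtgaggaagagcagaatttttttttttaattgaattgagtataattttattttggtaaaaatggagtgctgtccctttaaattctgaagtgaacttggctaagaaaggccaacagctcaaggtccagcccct
Over the full window of 300 bases, 50 of them after the start, CAGCTG was found in 2 of 7 promoters of these 6 genes (Lhfpl3 and the inner start of Matn4) and in 16.3% of 32851 RefSeq promoters. ACAATG was found in 1 of 7, that of Enpp6, against 12.6% of all. ACAAAG and CATATG were in 0 of 7, against 18.7% and 3.91% of all promoters. The upstream bases of Neu4 and Pdgfra, which fell at both times, hold no match to these exact letters. E-boxes with other middle bases were not searched for, so their absence is not shown. A role of any motif was not tested.

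The genes differed among themselves in the size of the fall at 5 dpi. Because they were measured in the same samples, their covariance is unknown, and intervals of a difference between genes were computed with the largest SE that any correlation allows. From the lowest value up, the order was Neu4, Matn4, Gpr17, C1ql1, Pdgfra, Lhfpl3, Cspg4, Cacng4, Bcas1 and Enpp6. Of the 9 steps between neighbours, 3 had an interval below 0: Neu4 to Matn4 (-0.89, 95% interval -1.69 to -0.086), C1ql1 to Pdgfra (-0.70, -1.29 to -0.11) and Pdgfra to Lhfpl3 (-0.77, -1.22 to -0.32). The other 6 steps had intervals that span 0.

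Early precursor genes were then set against each committed-stage gene. Against Enpp6, 6 of the 7 early genes had a difference whose interval lay below 0 at 5 dpi, the largest for Neu4 (-4.63, -5.63 to -3.63). For Cacng4 the interval reached 0 (-0.99, upper bound 0.014). Gpr17 itself lay 3.37 below Enpp6 (-4.38 to -2.36), so the committed-stage genes differed from each other by more than their widest error. Against Gpr17, the early genes lay on both sides. Neu4 fell further than Gpr17, by a difference of -1.26 (-2.10 to -0.41). Matn4 and C1ql1 did not differ from it beyond the interval (-1.18 to 0.44 and -0.30 to 1.29). Pdgfra, Lhfpl3, Cspg4 and Cacng4 fell less than Gpr17, with differences of 1.19, 1.96, 2.20 and 2.38 and lower bounds from 0.54 to 1.53. The grouping into early precursor and committed-stage genes therefore did not order the falls. Gpr17 ranked between Matn4 and C1ql1, and Enpp6 with Bcas1 at the other end. The committed-stage genes mark different steps, GPR17 before ENPP6, so a finer order of stages was not tested here.

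**Figure D2:**
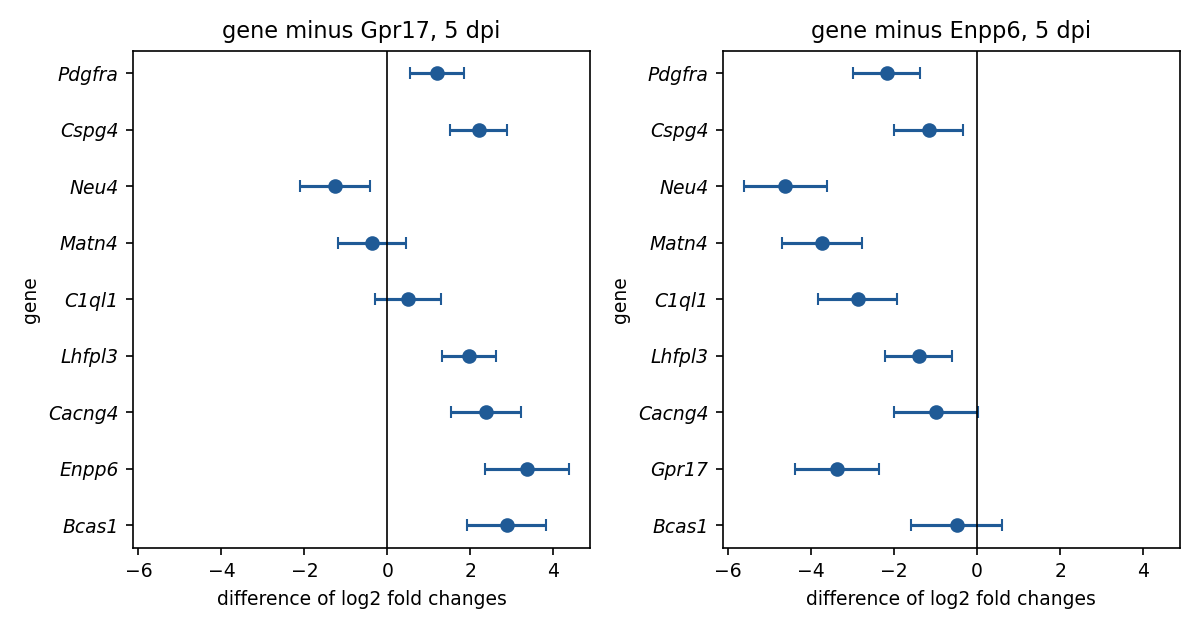
Difference of log2 fold changes at 5 dpi between each gene and Gpr17 (left) or Enpp6 (right), with 95% intervals from the sum of both implied SEs. Against Gpr17, Neu4 lies below 0 and Matn4 and C1ql1 span it. Against Enpp6, Cacng4 and Bcas1 span 0 and the other 7 genes lie below.

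At 12 weeks, 7 of the 10 genes were still lower in CDS in the authors' deposited table, against 0.0982% of all genes, and none was higher, against 0.0933%. The 7 were Neu4, Matn4, C1ql1, Gpr17, Pdgfra, Cspg4 and Lhfpl3, and thus 6 of the 7 early genes and 1 of the committed pair. The median of the early genes was -0.84, beside -0.0022 for all genes. Only 20 genes of the whole table were lower at 12 weeks, so that these genes made up 7 of 20. All 20 had also been lower at 5 dpi.

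The sialidase gene Neu4 stood at 34.0% of PBS at 12 weeks (27.1 to 42.8%), Matn4 at 36.7% (29.7 to 45.5%) and C1ql1 at 37.6% (30.6 to 46.2%), from the authors' deposited table. These were close together, after spanning 4.32 to 14.5% at 5 dpi. Gpr17 stood at 52.9% (39.3 to 71.0%), Pdgfra at 55.9% (47.9 to 65.3%) and Cspg4 at 62.6% (52.4 to 74.8%), from the authors' deposited table. The highest of the 7 was Lhfpl3, at 73.4% (62.9 to 85.7%) and with a q of 0.0457 in the authors' deposited table. At a q under 0.01 the calls of Gpr17 and Lhfpl3 were lost, and 5 of 10 genes were called. Of the 6 steps between neighbours in this order, none had an interval clear of 0. Against Gpr17, too, all 6 other called genes had intervals that span 0, with Neu4 at -0.64 (-1.39 to 0.12) and Lhfpl3 at 0.47 (-0.17 to 1.12).

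Cacng4, Enpp6 and Bcas1 were not called at 12 weeks, with log2 fold changes of -0.48, 0.40 and 0.48 in the authors' deposited table. They share the highest q-value of 0.999997 with 20100 other genes of the table, so no SE follows for them. Their SE is at least 0.19, 0.16 and 0.19. Enpp6 and Bcas1 were the only 2 of the 10 with positive values at this time.

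Whether the difference between CDS and PBS changed from 5 dpi to 12 weeks was tested as a two-sided Wald z from the implied SEs, over the 272 genes that have one at both times, with Benjamini-Hochberg adjustment. These 272 genes are those with small p at 12 weeks. A value closer to PBS at 12 weeks was found for 6 of the 7 genes that could be tested (adjusted p under 0.05). Of the 272 genes, 14% were higher at 12 weeks, a share that also counts genes raised in CDS at 5 dpi. Such a return was not particular to these genes. Of the 10 other genes lower at both times and nearest in pattern, most passed too. They were Slc2a5 (2.25), Snx22 (1.48), Gucy2f, Cd163, Olig2, Shc4 and Lad1, while Inava, Vcan and Aldh1a3 did not pass. The log2 difference was 2.98 for Neu4 (SE 0.27, adjusted p = 9.32e-26), 2.36 for Gpr17 (0.31, 8.13e-13) and 2.20 for Matn4 (0.25, 1.41e-16). It was 1.37 for C1ql1 (SE 0.24, adjusted p = 2.67e-07), 1.25 for Pdgfra (0.16, 5.81e-13) and 0.87 for Lhfpl3 (0.16, 1.37e-06). For Cspg4 it was 0.40 (SE 0.19) and did not pass (adjusted p = 0.114).

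As a share of the log2 fall at 5 dpi, 28.1 ± 6.9% (SE) remained at 12 weeks for Gpr17, 33.9 ± 9.1% for Lhfpl3 and 34.3 ± 4.0% for Neu4. For Matn4 the share was 39.6 ± 4.8%, for Pdgfra 40.2 ± 5.9%, for C1ql1 50.7 ± 6.4% and for Cspg4 62.6 ± 14.4%. Among these 7 genes, all called at both times, the committed-stage gene Gpr17 had the smallest remaining share and the NG2 gene Cspg4 the largest. Their errors reach those of their neighbours. A gene with little of its fall left at 12 weeks may not have been called, and so has no share here.

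**Figure D3:**
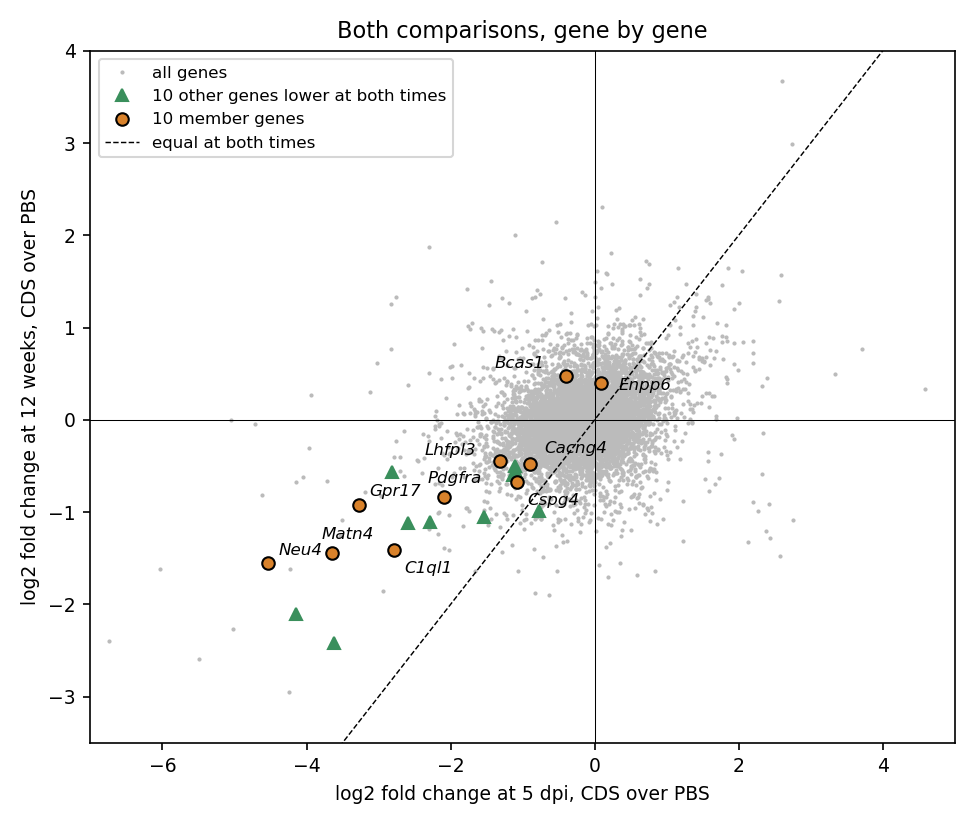
Log2 fold change at 12 weeks against that at 5 dpi, both as deposited, for all 20375 genes (grey), the 10 member genes (orange) and 10 other genes lower at both times (green triangles). The 7 members called at both times lie below 0 on both axes and above the dashed line of equality, and Enpp6 and Bcas1 lie within the cloud of all genes.

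Relatives of these genes were set beside them at 5 dpi. Measured paralogs were available for 5 called members (Neu4, Matn4, C1ql1, Lhfpl3 and Cacng4). Of these 16 paralogs, 14 had a log2 fold change above that of the member by more than the widest interval. Nearly all other genes also lay above these members. Among all genes, only 7 had a lower value than Neu4, 16 than Matn4 and 30 than C1ql1. For Lhfpl3 and Cacng4 the numbers were 285 and 823. The count therefore cannot set paralogs apart from other genes, and restates that the members fell. The other sialidase genes Neu1, Neu2 and Neu3 stood at -0.04, 0.17 and 0.09 in the authors' deposited table, and 0 of 3 were called. C1ql3 rose by 0.39 (q = 0.00917, the authors' deposited table), where C1ql1 fell, and C1ql2 stood at 0.22. Matn1 fell by 2.93 (q = 3e-04, the authors' deposited table) and did not differ from Matn4 beyond the interval (-2.34 to 0.91), while Matn2 stood at -0.14. Among the relatives of Lhfpl3, Lhfpl2 fell by 0.30 (q = 0.0282, the authors' deposited table) and the 3 others were not called. Of the 5 relatives of Cacng4, Cacng5 stood at -0.62 in the authors' deposited table (q = 0.0658), with an interval that overlaps that of Cacng4. Of 9 such relatives and AMPA receptor subunits, 0 were called by the authors' q. A recovered unadjusted p under 0.05 was found for 4 of them, and for 3883 of all 20375 genes. For Enpp6 the intervals against all 5 relatives span 0, although Enpp1 rose by 0.78 at both times (q = 0.000333 and 0.00386, the authors' deposited table). Adgrb3, the receptor of C1q-like proteins, stood at -0.09 at 5 dpi in the authors' deposited table (q = 0.633).

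**Figure D4:**
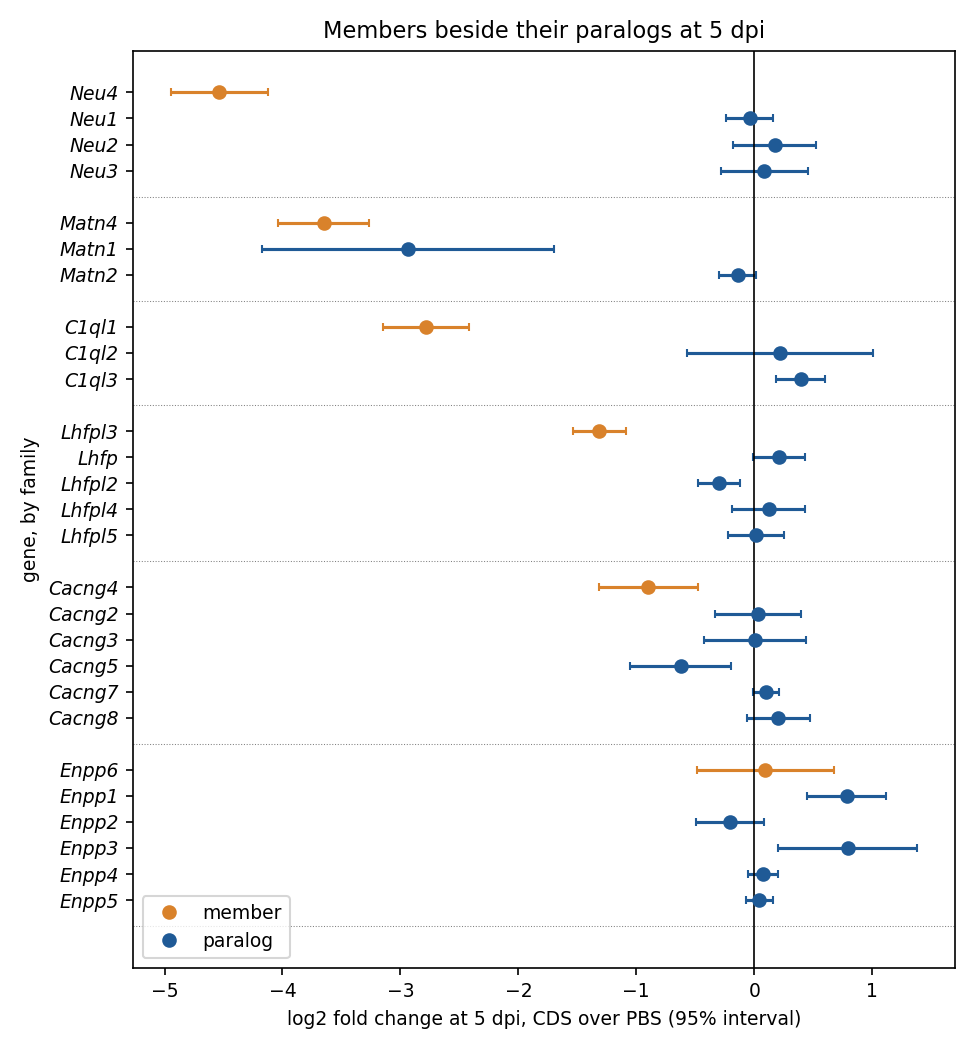
Log2 fold change at 5 dpi with 95% intervals for 6 members (orange) and their measured paralogs (blue), grouped by family. Neu4, C1ql1 and Lhfpl3 stand apart from all their paralogs, while Matn1 lies near Matn4 and Cacng5 near Cacng4.

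Some genes share bases with others, and how strand was handled in counting is not given in the sources used here. Gpr17 lies wholly within the span of Lims2 on the opposite strand, and Lims2 fell by 0.72 at 5 dpi in the authors' deposited table (q = 8.37e-06). Matn4 shares 2020 bases with Rbpjl on the opposite strand, which fell by 2.17 in the authors' deposited table (q = 0.00211). Within Lhfpl3, the transcripts A930003O13Rik and Gm21846 were called lower, at -1.61 and -1.76 in the authors' deposited table. Gm21846 lies on the same strand as Lhfpl3. So does 6030443J06Rik, which shares 61792 bases with it and was not called (-0.56, q = 0.0959, the authors' deposited table). Strand would not part the reads of Gm21846 or 6030443J06Rik from those of Lhfpl3. Reads of the other pairs, which lie on opposite strands, cannot be told apart without strand. Neu4 and Cspg4 overlap no annotated gene.

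The growth factor side of the pathway was described from a list of 5 genes. Pdgfa, which encodes the main ligand of the receptor, stood at 0.12 at 5 dpi and 0.04 at 12 weeks in the authors' deposited table (q = 0.442 and 0.999997). Pdgfb, Pdgfc and Pdgfd were not called at either time. Pdgfrb, the related receptor of pericytes, rose by 0.37 at 5 dpi in the authors' deposited table (q = 0.00257), opposite to Pdgfra.

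Other genes of the lineage were described from lists in the same way. Of 18 further precursor genes, 10 were lower and 1 higher at 5 dpi, with a median of -0.38. Tmem255b fell by 4.05, Vcan, a matrix proteoglycan, by 1.13, and Shc4, a signalling adaptor, by 1.08, while Rprm, also a neuronal gene, rose by 0.81 (q from 3.15e-25 to 0.000167, the authors' deposited table). At 12 weeks Vcan and Shc4 were the 2 still called, at -0.60 and -0.59 in the authors' deposited table. Of 14 other genes of committed precursors or newly formed oligodendrocytes, 3 were lower and 1 higher at 5 dpi, with a median of -0.045. Bmp4, a ligand made by committed precursors, fell by 1.21, and Itpr2 and Tns3 by 0.38 and 0.25, while Casr rose by 1.84 in the authors' deposited table. None of these 14 was called at 12 weeks, where Bmp4 stood at -0.04 in the authors' deposited table. Gpr17 and Bmp4 both fell at 5 dpi, while 10 of the 14 genes did not pass.

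Lineage transcription factors were lower in 4 of 11 cases at 5 dpi, with a median of -0.23. By the authors' deposited table Olig2 was at -1.11, Zfp488 at -1.77, Olig1 at -0.85 and Nkx2-2 at -0.91, all called. Only Olig2 was called at 12 weeks, at -0.50 in the authors' deposited table (q = 0.00386). Of 14 myelin genes, 0 were called at either time in the authors' deposited table, and at 5 dpi the deposited q of Mbp, the smallest, was 0.0577. At 5 dpi 6 of the 14 had a recovered unadjusted p under 0.05, where 3883 of all 20375 genes did. All 14 had positive values at both times, with medians of 0.46 and 0.47. Enpp6 and Bcas1 at 12 weeks, at 0.40 and 0.48, thus had values near the myelin median and above those of the early precursor genes. No SE follows for Enpp6 and Bcas1 at that time, so whether they differ from the early genes was not tested.

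**Figure D5:**
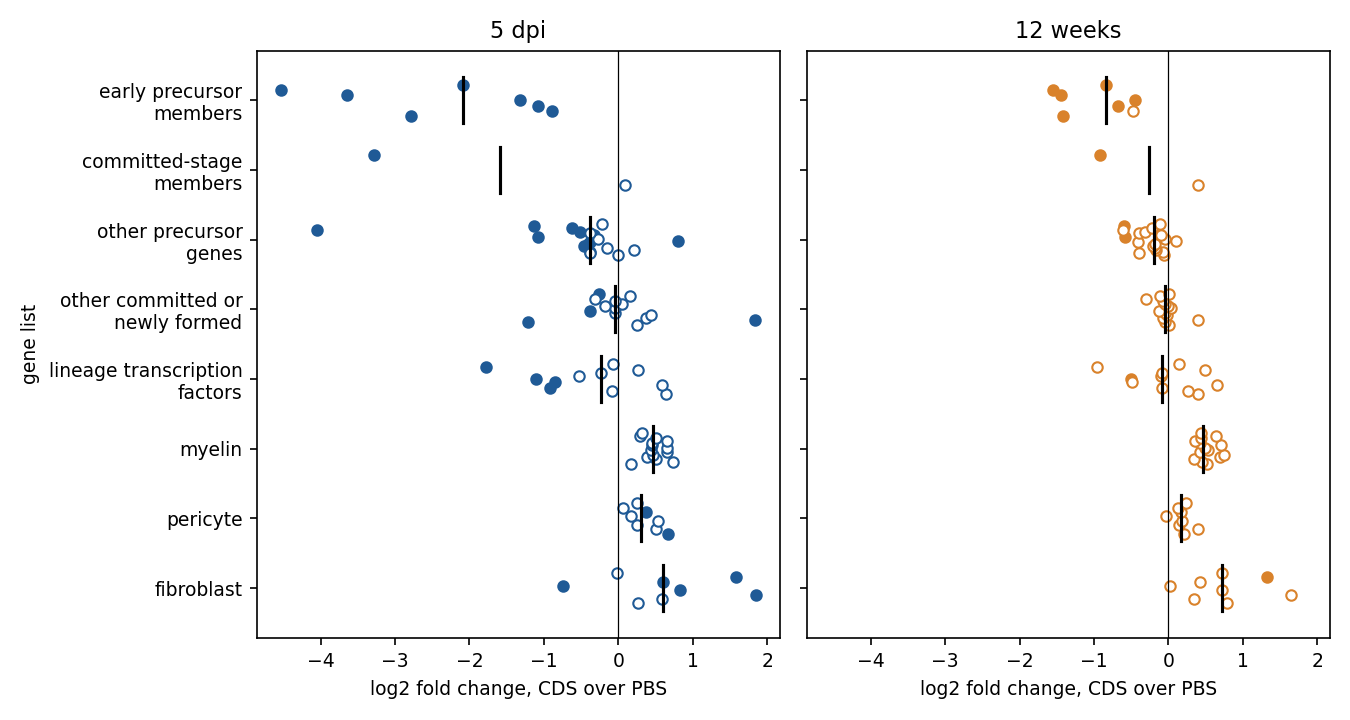
Log2 fold change of CDS over PBS at 5 dpi (left) and 12 weeks (right) by gene list, with 1 point a gene. Filled points have a deposited q under 0.05, and black bars are list medians. The early precursor members have a median of -2.09 and then -0.84, while the myelin list lies wholly above 0 at both times.

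Markers of other cell types also moved, and their part in the values above was not tested. Cspg4 is also made by pericytes and Pdgfra by fibroblasts of the brain's linings. Of 8 pericyte genes 2 were higher and 0 lower at 5 dpi, with all 8 above 0 and a median of 0.31; Abcc9 rose by 0.67 in the authors' deposited table. Of 8 fibroblast genes 4 were higher and 1 lower, with a range of -0.74 to 1.85 and a median of 0.60. Fmod was the gene that fell, at -0.74, and Lum rose by 1.58 at 5 dpi and by 1.33 at 12 weeks in the authors' deposited table. All 8 homeostatic microglia genes were lower at 5 dpi, with a median of -1.88, and 1 of 8 at 12 weeks, with a median of -0.45. Of 10 cell cycle genes 8 were higher at 5 dpi, with a median of 1.07, and 0 at 12 weeks. Gfap and Ntsr2 rose among 8 astrocyte genes, 2.82-fold and 1.22-fold, and Gad1 fell by 0.35 among 8 neuron genes, in the authors' deposited table at 5 dpi; at 12 weeks none of these 16 genes was called.

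Outside the members, 13 genes were lower at both times. They were ordered by their distance from the median of the 7 members called at both times (-2.78 at 5 dpi and -0.92 at 12 weeks), a likeness over 2 comparisons only. The nearest was Snx22, a sorting nexin gene, at -2.60 and -1.12 in the authors' deposited table, at a distance of 0.27. Next came the microglial fructose transporter gene Slc2a5, at -2.82 and -0.56, and Gucy2f, a guanylate cyclase gene, at -2.29 and -1.11 in the authors' deposited table. Inava, Vcan, the macrophage scavenger receptor gene Cd163, Olig2, Shc4, Lad1 and Aldh1a3 followed, at distances from 1.26 to 2.01. The genes nearest in pattern thus included both lineage genes and genes of macrophages and microglia.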

How the data were processed

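RNA from medial prefrontal cortex was sequenced after removal of ribosomal RNA with a stranded kit, per the labels' protocols. STAR, featureCounts, DESeq2 and the build GRCm38.p5 are named in the submitters' processing notes, with no versions. For each time the authors deposited the log2 fold change between CDS and PBS with its q-value, per the file headers. The sources used here do not give filters, strand handling or any shrinkage of the fold changes. Per-sample columns numbered 0, and the depth of each sample is unknown.

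No new test was made within a time: a gene was called at a deposited q under 0.05. The q-values were taken as a Benjamini-Hochberg adjustment over 20375 genes, so that p is q times rank over 20375, z follows from p and the implied SE is the log2 fold change over z. If the deposited fold changes were shrunken, these SEs would be too small. At 12 weeks 272 genes have a recovered p, and the 20103 tied genes have a p of at least 0.0134. The difference between times, the intervals between genes and the alternatives were computed in Python 3.11.15 with scipy 1.17.1. The recovery was run on simulated data as a check of the code. The simulated q-values were built by the same adjustment and without shrinkage, so the run cannot test those assumptions. Listed symbols were matched to the tables directly, or through RefSeq synonyms (Tmem2, present as Cemip2); 148 of 151 entries in 20 lists were measured. Gene positions are those of GENCODE M21 (GRCm38), where 20300 IDs were found. Promoters are those of RefSeq (GRCm38.p6).

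The members and lists were chosen with earlier results of these data known. Genes named are the 10 members, up to 4 of each list by smallest q at 5 dpi or all called ones where 5 or fewer, and the 10 non-members lower at both times nearest to the members. Paralogs, overlapping genes and genes beside them were named after their values were seen. Alternatives were other thresholds, centring, groupings and sets of genes tested.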

Additional observations from a re-analysis of the deposited data

Results flagged for a closer look

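For 6 genes the difference between CDS and PBS was not the same at both times by the test of that difference. The change in log2 fold change from 5 dpi to 12 weeks was 2.98 for Neu4, 2.36 for Gpr17, 2.20 for Matn4, 1.37 for C1ql1, 1.25 for Pdgfra and 0.87 for Lhfpl3. All 6 moved towards the PBS level, and all 6 were still called lower at 12 weeks. The samples of the times differ in age, so that age, time since injection and any difference in handling between the times cannot be told apart. No sample could be compared with the others of its group, because only group comparisons were used.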

How the results depend on the processing

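Of 74 values under alternatives, 70 kept their direction and their side of the threshold, or stayed within the error set for them. Of the 74, 54 were log2 values of single genes, which centring or another adjustment left nearly or wholly unchanged, so they say little. Among the remaining counts and medians, 16 were taken as unchanged and 4 as moved. Counts that shifted within the ranges given next were among the 16. The count of genes lower was 7 or 8 at 5 dpi and 5 to 7 at 12 weeks under a q of 0.01 or 0.1, a fold of at least 1.5, Bonferroni adjustment and adjustment over protein-coding genes. The 4 that moved were medians at 5 dpi. Over all 10 genes the median log2 fold change was -1.70. It was -1.31 without Neu4 and -2.05 without Pdgfra and Cspg4. With Bcas1 and Neu4 counted as committed-stage, the early median was -1.70 in place of -2.09 and the committed median -1.84 in place of -1.59. The early median thus lay below the committed median in the grouping described, and above it in the other grouping. Each of these medians is taken over few genes with a wide range.

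The difference between times was called for each of the 6 genes also over all genes with filled SEs and under Bonferroni adjustment, beside 0.348% of all genes higher at 12 weeks with filled SEs. Under filled SEs, Cacng4, Enpp6 and Bcas1 did not pass (adjusted p = 0.85, 0.938 and 0.479). No paired analysis was possible because values per sample were not in use, and for the same reason leaving out each replicate in turn was not run. Genes with large SEs, such as Enpp6 at 5 dpi, could change moderately and not be called.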
